A study of Ovis aries and Bos taurus with 6 samples.

Results

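In milk extracellular vesicles (EVs) of sheep, 63 rows of the deposited miRNA table carried the name of a star strand without a miRBase name. They were chosen by their names and counts: each is called novelN_star, a novelN_mature row of the same number N stands in the table, and the star row held 10 or more counts summed over the 3 sheep libraries. Of the 685 rows of the sheep table, 111 were star rows with a mature partner, of which 48 fell under the minimum, and the pair novel1 was left out by rule. The deposited tables of both species have 1464 rows. Since the counts of these libraries chose the rows, their abundance is described without a test. 4 of the 63 rows bear names joined by ">", because several predicted hairpins give the same sequence, so the 63 rows stand for 69 hairpins, with 65 distinct mature partner rows.

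The study sequenced small RNA of milk EVs from 3 Ordos fine wool sheep and set it beside 3 Holstein cows of an earlier study by the same group. All 6 animals were females in mid lactation, without any treatment or genetic change in the labels. EVs were precipitated with a kit for body fluids, which does not sort vesicles by the cell that shed them, and fewer vesicles of one origin cannot be told apart from less RNA per vesicle. The sheep libraries held 1110632, 2078695 and 1073914 miRNA counts in replicates 1, 2 and 3. The lactation miRNA miR-148a was the largest row of each, with 19.6%, 63.6% and 38.0% of the counts. Of 23 miRNAs listed as markers of mammary epithelium, blood, liver, muscle, endothelium and stroma, only 5 had a row by miRBase name. Among these replicate 1 stood apart, with a level of 637 CPM (counts of a row in 1000000 counts of its library) of the lymphocyte miRNA miR-150 against 30.8 and 36.3 in replicates 2 and 3, and 6581 CPM of the stromal miRNA miR-143 against 1513 and 1890. The epithelial miR-200b and miR-200c were highest there as well (2411 and 3159 CPM), while miR-148a was lowest.

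A miRNA is cut from a hairpin precursor. Drosha and then Dicer release a short duplex whose strands overhang each other at the 3′ ends. One strand, called mature or guide, is loaded into an Argonaute protein, while the other, called star or passenger, is mostly degraded. The seed, bases 2 to 8 of the loaded strand, does most of the target pairing. Argonaute loading tends to favour strands that begin with uracil or adenine, and which arm of a hairpin is kept can differ between tissues. Programs that predict new miRNAs from reads name both strands of a hairpin, and such names can disagree with the read counts.

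The pairs on which the results turn are printed 5′ to 3′ as deposited, with T for uracil and the seed in capitals. The first group holds the 3 star rows with most counts and their main mature partners, where the star row far outnumbered its partner or stood near it.
novel6_star: tGTAAACAtccttgactggaagct
novel6_mature: tTTCAGTCggatgtttacag
novel12_star > novel13_star: gCTGGGAAggcaaagggacgt
novel13_mature: tTCCCTTTgtcatcctatgcctg
novel129_star: cACTAGATtgagagctcctgga
novel129_mature: aAGGAGCTcacagtctattg

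The next group holds rows that stood apart in other ways. novel38_star was the longest row and had the widest range of star share among the pairs with 20 or more counts in each library, and novel207_star was read in a single library and paired poorly with its partner.
novel38_star: aGGGGTGCtatctgtggttgaggaca
novel38_mature: tCTCACACagaaatcgcacccatc
novel207_star: cAGTTGGTaagggtattt
novel207_mature: aAAACCTGaatgaactttttg

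Together the 63 star rows made up 1.73%, 0.640% and 1.16% of all counts in replicates 1, 2 and 3, with exact Clopper-Pearson 95% intervals no wider than 1.70 to 1.75% (replicate 1). The mean was 1.18% ± 0.544 (SD, n = 3). The share was lowest in replicate 2, where miR-148a was highest. With the largest row taken out of each library the shares were 2.15%, 1.76% and 1.87%. Their 65 mature partners took 7.59%, 5.11% and 9.14%. A few rows carried the sum: the 10 largest star rows of a library held 88.6% ± 1.47 of all star counts there, and the largest alone held 38.1% ± 4.56.

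The most abundant row was novel6_star, with 5835, 2743 and 4353 CPM in replicates 1, 2 and 3, a mean of 4311 ± 1547 (SD, n = 3). Its seed is that of the miRBase rows miR-30a-5p, miR-30b, miR-30c and miR-30d. The row shared by novel12 and novel13 came next, with 3259, 1049 and 1221 CPM. novel129_star had 1623, 599 and 697 CPM. All 3 were highest in replicate 1 and lowest in replicate 2. novel239_star had another order, with 143.2, 322 and 1354 CPM, highest in replicate 3. The remaining rows with more than 1500 summed counts were the row shared by novel4, novel5 and novel139 (949, 311 and 516 CPM), novel30_star (1201, 88.0 and 276 CPM), novel339_star (579, 234 and 568 CPM) and novel25_star (956, 151 and 220 CPM). Of these 8 rows, 7 were highest in replicate 1, with novel339_star nearly level between replicates 1 and 3, and only novel239_star was lowest there. The median star row had 63 summed counts.

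**Figure D1:**
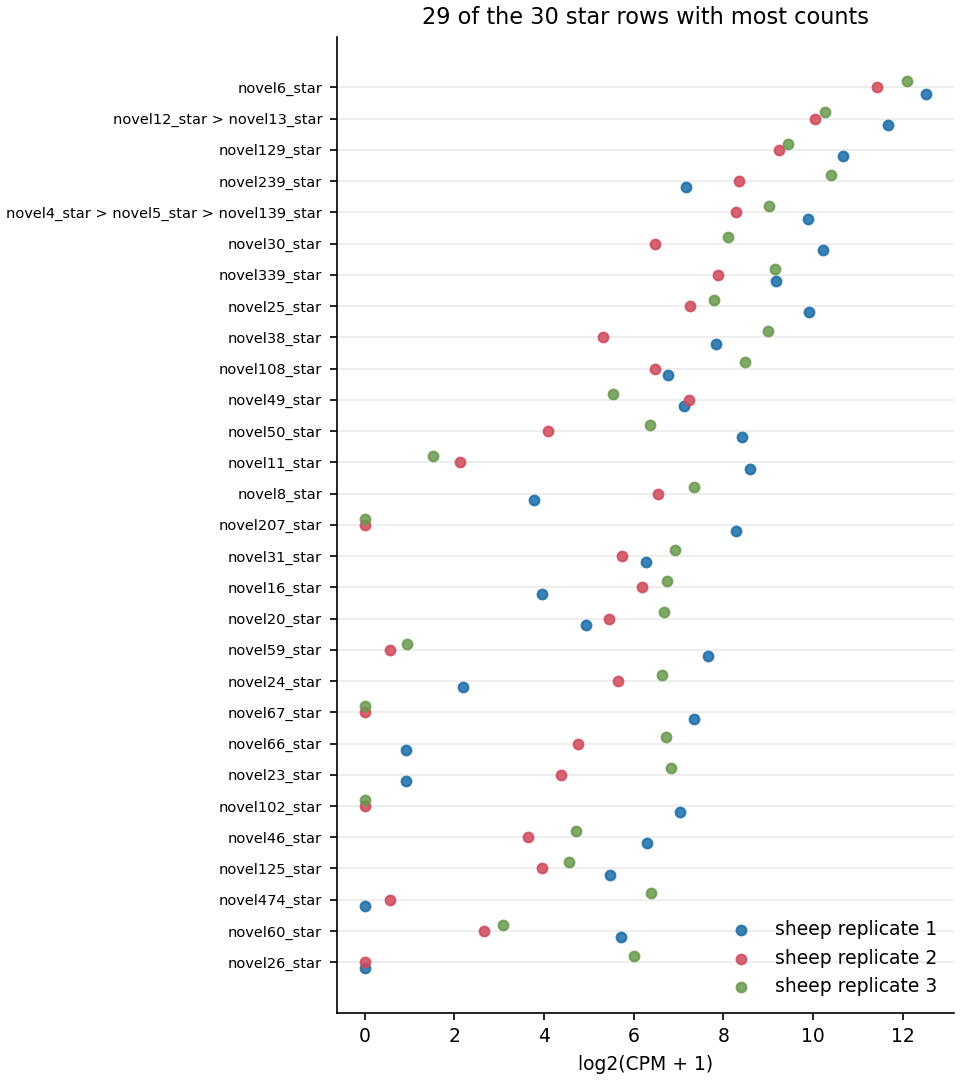
Levels of 29 of the 30 star rows with most counts, as log2(CPM + 1) on the horizontal axis, with 1 point per sheep library. The uppermost rows lie within a few log2 units in the 3 libraries, while rows such as novel11_star, novel59_star and novel207_star stand high in replicate 1 only and novel474_star and novel26_star in replicate 3 only.

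The name star did not mark the strand with fewer counts. In 24 of 63 rows the star row held more summed counts than its mature partner, and these 24 rows held 83.3% of all star counts. The star row was above its partner in every library for 10 rows, and below it in every library for 32. Among the 10 are novel44_star and novel59_star, whose partners lie whole within the mature rows novel45_mature and novel61_mature. Their ratios thus depend on how the mature reads were divided. With 1 library left out, the number above ran from 20 (without replicate 3) to 23. The rule's counts enter this comparison, so it is given as a description without a test.

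The star share, star counts over star plus mature counts of a pair, reached 99.8% of the summed counts, with a median of 19.6% and quartiles at 4.43% and 68.9%. It was under 1% in 7 rows, between 1% and 10% in 17, between 10% and 50% in 15, between 50% and 90% in 15 and over 90% in 9. The minimum of 10 star counts sets this distribution: the 48 star rows under it had a median share of 1.95%. The median of the members was 31.5%, 40.0% and 28.8% with replicate 1, 2 or 3 left out and the rule applied to the other libraries.

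At the top stood novel6_star. It had 6481, 5702 and 4675 counts against 18, 5 and 6 of novel6_mature, which is 360, 1140 and 779 star counts for each mature count. novel239_star followed with 159, 670 and 1454 counts against 10, 1 and 0. novel129_star had 1803, 1245 and 748 counts against 19, 5 and 7, and novel339_star 643, 487 and 610 against 20, 11 and 6. In these 4 pairs the star share lay at 94.1% or more in every library, so the groups of star and mature counts were far apart.

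The other rows over 90% were smaller: novel207_star (343 star and 2 mature counts summed), novel474_star (89 and 1), novel59_star (226 and 5), and novel66_star (167 and 4), and novel102_star with 94.7% of its pair's 152 counts. Among all 24 rows above their partners, the partner had under 20 summed counts in 12, so in those the ratio rests on few mature counts. For novel59_star, the partner's sequence lies whole within novel61_mature, which held 113 counts, so its share depends on how reads were divided.

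**Figure D2:**
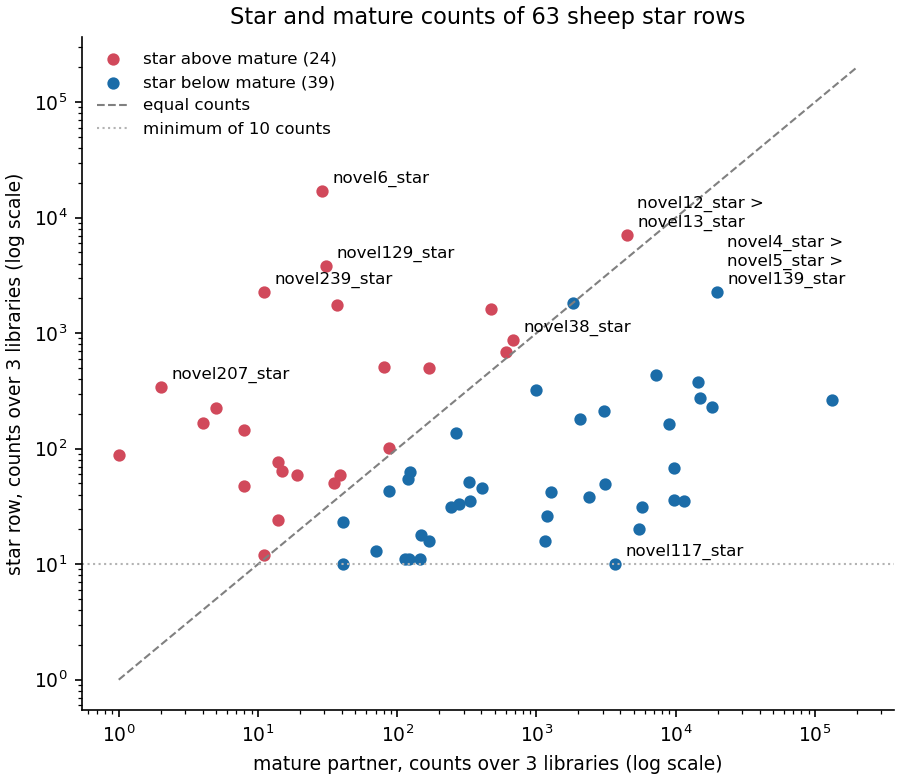
Summed counts of the 63 star rows (vertical) against those of their mature partners (horizontal), both on log scales, with the line of equal counts and the minimum of 10 star counts. The 24 red points above the line include novel6_star with 16858 star and 29 mature counts, and the row shared by novel4, novel5 and novel139 lies among the blue points with 2255 star and 19798 mature counts.

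Near the line of equal counts lay large pairs. The row shared by novel12 and novel13 had 3620, 2181 and 1311 counts against 1722, 1057 and 1688 of both mature rows together. It was above its partners in replicates 1 and 2 and below them in replicate 3. novel30_star had 1334, 183 and 296 counts against 1098, 568 and 173. Further above the line, novel25_star had 1062, 313 and 236 against 300, 70 and 104, and was above its partner in each library.

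At the low end stood novel117_star, with 5, 2 and 3 counts against 1165, 1720 and 765 of novel117_mature. novel29_star (15, 9 and 11 counts), novel22_star (11, 6 and 3), novel170_star (0, 35 and 1) and novel10_star (12, 8 and 11) also held under 1% of their pairs. For 3 of these the mature partner has the seed of a known family: novel29_mature that of miR-148a and miR-152, novel22_mature that of let-7, which is known from differentiated tissues, and novel117_mature that of miR-27a. These pairs were picked among the lowest star shares, and whether their star rows are passenger strands was not tested.

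How stable the star share was between libraries depended on the pair. Of 63 rows, 40 had 20 or more counts of star and mature together in each library. Among these the share lay on one side of 50% in every library for 33, and the median distance between the highest and lowest library was 4.11 percentage points. It was under 5 points in 21 pairs and over 20 points in 8. In 27 of the 40 pairs the exact 95% intervals of at least 1 pair of libraries did not overlap. The same count was not made for miRBase miRNAs with both arms in the table, so it is not shown to be particular to the star rows. In 6 of those the arm with fewer counts had 10 or more, and its share of the pair also differed between libraries. It ran from 31.2% to 39.6% for miR-30a-3p, 33.9% to 59.5% for miR-411a-3p and 4.11% to 15.1% for miR-382-3p. For miR-369-3p it ran from 24% to 37.5%, for miR-379-3p from 4.37% to 8.33% and for miR-409-5p from 1.21% to 2.96%. The intervals hold counting error only, and library preparation and animal cannot be told apart in the rest.

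The row shared by novel4, novel5 and novel139 was steady, at 9.45%, 11.3% and 10.8%. novel55_star stood at 8.33% in each library, but on 6, 3 and 2 star counts, with an interval of 1.75 to 22.5% in replicate 2, for example. The widest of the 40 pairs was novel38, at 42.6% (interval 38.5 to 46.7), 22.4% (18.2 to 27.1) and 90.1% (87.4 to 92.4) in replicates 1, 2 and 3. novel108_star had 23.4%, 65.5% and 77.6%, and novel30_star 54.9%, 24.4% and 63.1%. Both were thus on either side of 50%. novel50_star had 379, 33 and 87 counts beside 109, 48 and 13, or 77.7%, 40.7% and 87.0%. novel49_star, with 154, 310 and 49 counts beside 10, 66 and 4, stayed above its partner at 93.9%, 82.4% and 92.5%. In novel38 the star row was highest where the mature row was lowest, with 252, 81 and 546 star counts against 340, 280 and 60.

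The library with the highest share was replicate 1 for 15, replicate 2 for 13 and replicate 3 for 12 of the 40 pairs. No library thus had the highest share in most pairs. Summed over all pairs, the star share was 18.5%, 11.1% and 11.2%, a mean of 13.6% ± 4.25 (SD, n = 3). The pair with most mature counts weighs on this sum: without it, an alternative chosen after seeing the data, the shares were 25.4%, 19.99% and 20.8%, a mean of 22.04% ± 2.90. In CPM, replicate 1 was the highest library for 40 of the 63 star rows and for 40 of the 65 mature partners. The star and mature rows of a pair had the same highest library in 37 of 63. The CPM of all other rows depends on the share of miR-148a, which was 19.6%, 63.6% and 38.0% in replicates 1, 2 and 3. The same count over all rows is not given, so it is not shown to be particular to these pairs.

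**Figure D3:**
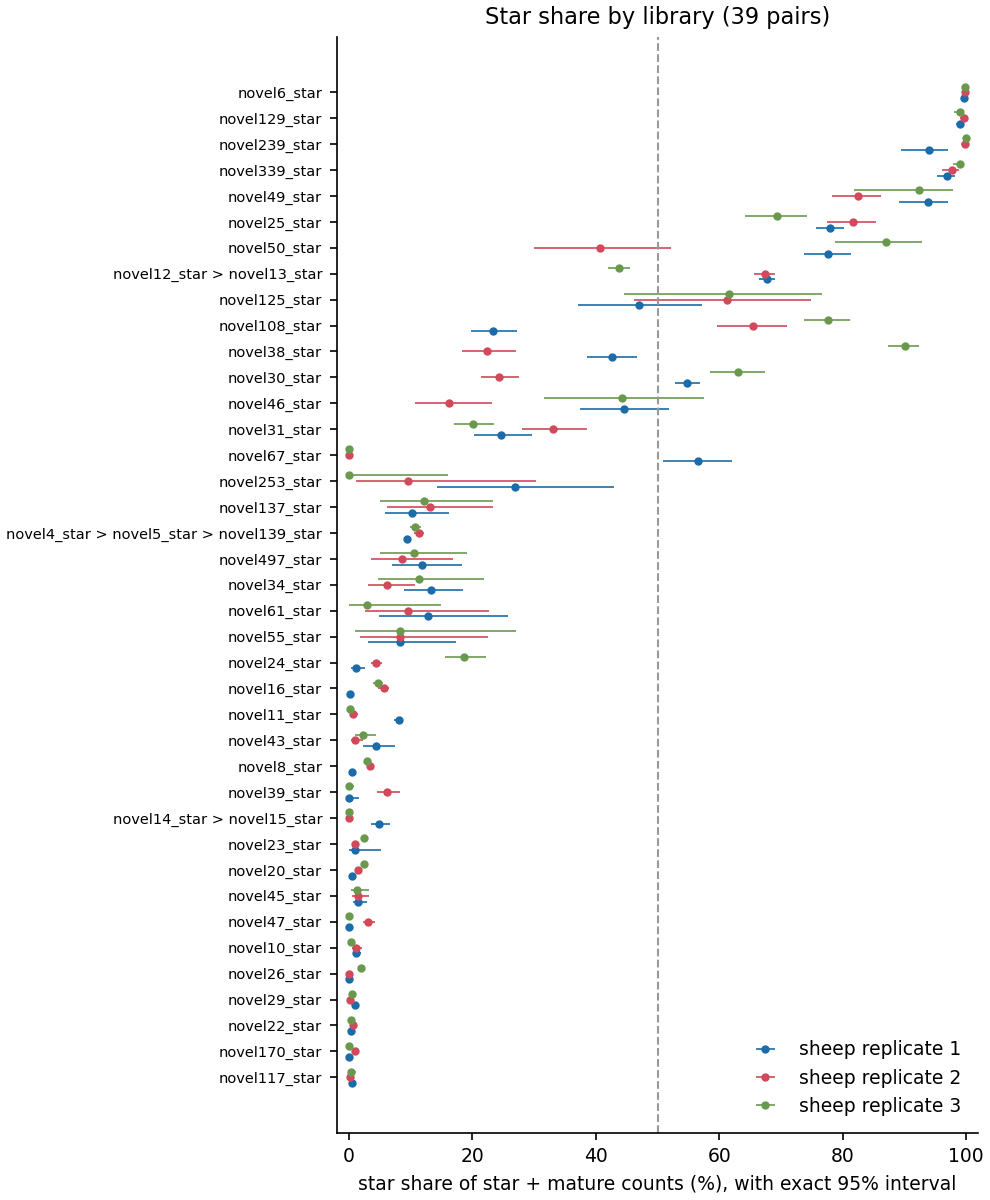
Star share of star plus mature counts in percent, for 39 of the 40 pairs with 20 or more counts in every library, with 1 point per library and exact 95% intervals, ordered by the mean. Pairs at both ends, such as novel6_star and novel117_star, lie close together, while novel38_star reaches from 22.4% to 90.1%.

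Most star rows had the length of miRNAs, and fewer of them began with T than of their mature partners. The median length was 22 bases, and 49 of 63 rows (77.8%) had 21 to 23 bases, beside 53 of 65 mature partners (81.5%) and 68 of 74 miRBase rows with 10 or more counts (91.9%). A star row was shorter than its main mature partner in 31 pairs, longer in 18 and of equal length in 14. Outside 20 to 24 bases were 5 rows: novel38_star with 26, novel8_star and novel320_star with 19, and novel50_star and novel207_star with 18. The last had no counts outside replicate 1 and novel320_star none outside replicate 2.

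The first base was A in 19, C in 19, G in 11 and T in 14 of the 63 star rows. T thus led 22.2% of the star rows, against 35 of 65 mature partners (53.8%) and 39 of 74 miRBase rows (52.7%). It led 34.9% of the 324 other unnamed rows with 10 or more counts, 22.9% of the 48 star rows under the minimum, and 3 of the 10 minor arms of named miRNAs with both arms in the table. C led 30.2% of the star rows, 15.4% of the mature partners and 8.11% of the miRBase rows. Rows are not replicates, and no test was made. Within pairs, the mature row began with T and the star row did not in 28, from 11 rows with A, 10 with C and 7 with G, while the star row began with T and its partner did not in 9.

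The 24 star rows above their partners began with T in 6 cases, and the 39 below them in 8. Counted by reads instead of rows, T led 45.5% of the star counts and 43.3% of the counts of the mature partners, but each value rests on 1 row. Without the pair with most mature counts T led 80.1% of the mature counts. Among the star counts the row is novel6_star, which has 24 bases and begins with T. Without it T led 12.8% of the star counts, and rows of 21 to 23 bases held 75.3% of the star counts, against 47.1% with it.

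**Figure D4:**
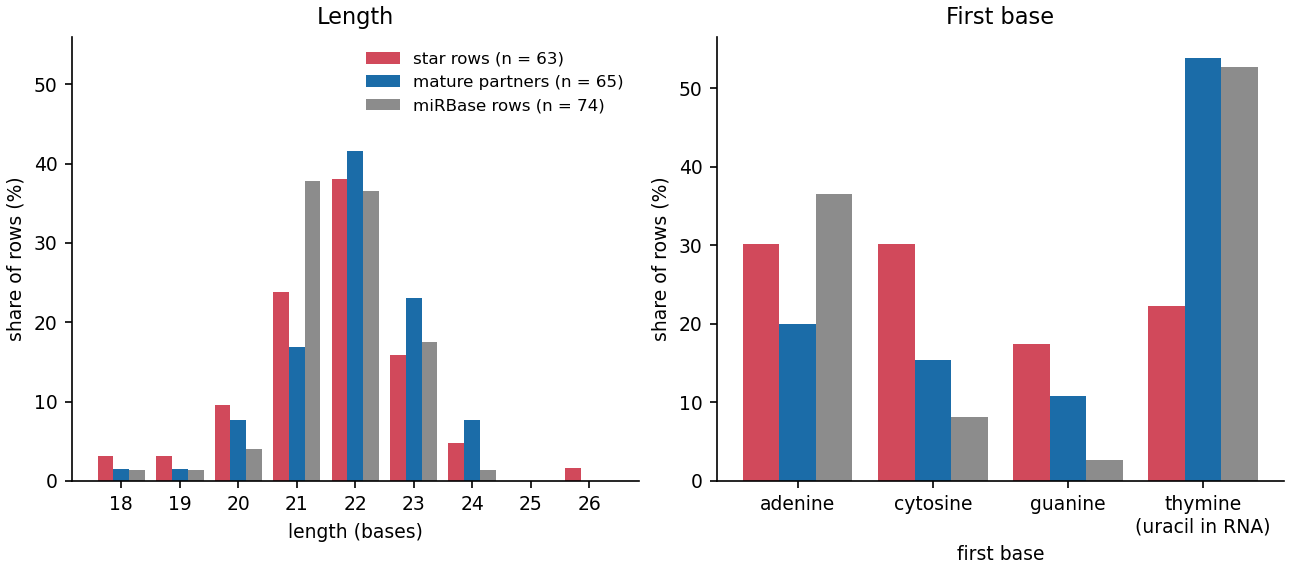
Share of rows in percent by length (left) and by first base (right) for the 63 star rows, their 65 mature partners and 74 miRBase rows with 10 or more counts. The lengths of the 3 sets overlap around 22 bases, while thymine leads 22.2% of the star rows and over 50% of the other rows.

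Most star rows could form a duplex with their own partner. Folded against all 65 mature rows with ViennaRNA, the star row had its lowest duplex energy with its own mature row in 55 of 63 cases. The own mature row ranked between 2 and 5 in 6 cases and lower in 2. The median duplex had 17 base pairs and an energy of -21.9 kcal/mol. The strands overhung by 2 bases at both 3′ ends, the geometry that Drosha and Dicer leave, in 18 of the 63 duplexes. The wider range of 1 to 3 bases at both ends held 42. The rule did not use pairing, but prediction programs commonly do, so this is a description of the named pairs.

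The same measures were set side by side for the rows above and below their partners. The own mature row ranked 1 in 22 of the 24 star rows above and in 33 of the 39 below, with median energies of -22.65 and -21.7 kcal/mol, and overhangs of 1 to 3 bases at both ends were found in 14 and 28. The own partner did not rank first in 8 rows. The lowest ranks were those of novel207_star (10 base pairs, -10.0 kcal/mol) and novel320_star (10 base pairs, -17.2 kcal/mol), whose own partner ranked 6 among the 65. novel207_star had 343, 0 and 0 counts, and novel320_star had 0, 51 and 0 while its partner had 326, 0 and 0. The star and mature rows of novel320 were therefore never read in the same library.

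The agreement between libraries is described for the star rows as chosen and without those read mainly in 1 library. Across the 63 rows, Pearson's r of log2(CPM + 1) was 0.49 between replicates 1 and 2, 0.51 between 1 and 3 and 0.75 between 2 and 3. For the 65 mature partners, chosen by name and more abundant, it was 0.82, 0.84 and 0.92, and for 74 miRBase rows 0.93, 0.91 and 0.90. Spearman's rho of the star rows was 0.32, 0.44 and 0.64. These are descriptions across rows that share libraries and differ in depth, with no p. For the 27 star rows with 100 or more counts r was 0.35, 0.21 and 0.93. This cut was also made on the sum over libraries. novel11_star (425, 7 and 2 counts) and novel207_star (343, 0 and 0), for example, passed it through replicate 1 alone. Such rows lower r for the pairs with replicate 1, so these values do not show how high counts bear on agreement. The median coefficient of variation of CPM over the 3 libraries was 97.8% for the star rows, 82.8% for their partners and 58.9% for the miRBase rows.

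The minimum was set on the sum over libraries, so a star row could pass it through 1 library alone. 16 of the 63 star rows had 90% or more of their summed CPM in 1 library, 8 of them in replicate 1, 5 in replicate 2 and 3 in replicate 3, and 10 had counts in that library only. Beside them, 8 of 65 mature partners, which had no minimum, and 5 of 74 miRBase rows had 90% or more in 1 library. Without these 16 rows r was 0.77, 0.74 and 0.88. They were taken out because they differ between libraries, so a higher r follows by construction. The 16 rows carried 4.13% of the star counts, with 13 to 434 counts each.

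**Figure D5:**
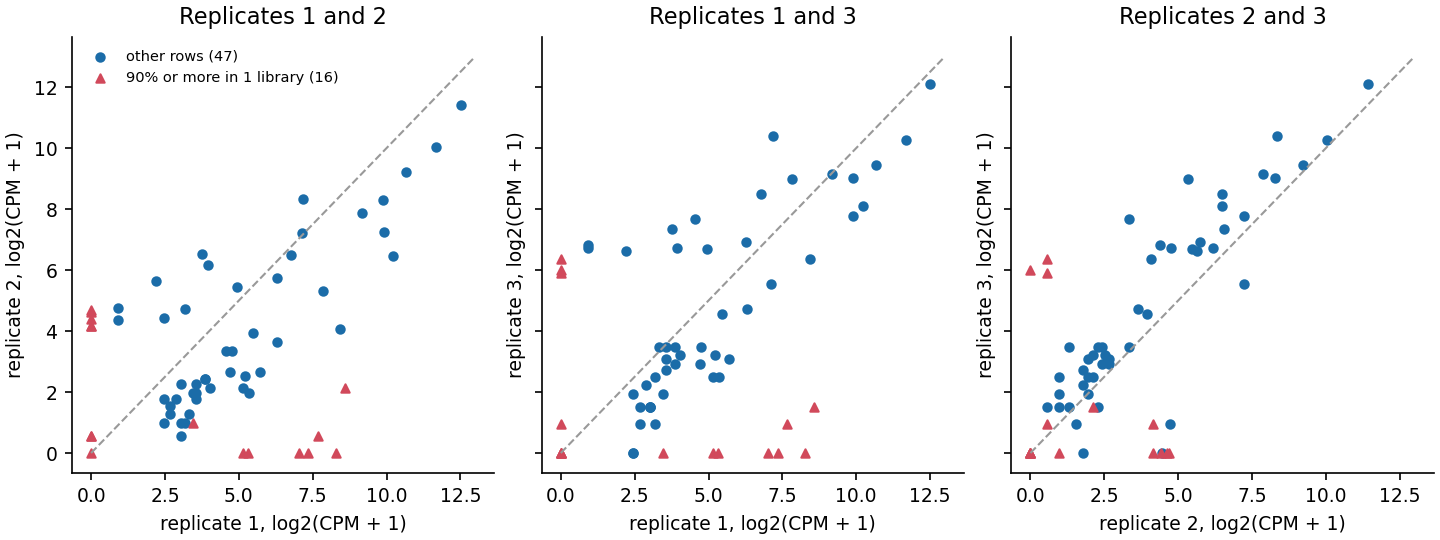
Star row levels as log2(CPM + 1) in each pair of sheep libraries, with the line of equal levels. Triangles mark the 16 rows with 90% or more of their CPM in 1 library, which lie mostly along or near the axes, and circles the other 47.

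The partners of these rows were mostly read in all libraries. For 11 of the 16 the mature row had counts in every library, a lower share than the 57 of all 65 mature partners. In only 1 of the 16 did the mature row also have 90% or more of its CPM in the library of the star row. novel67_star had 180 counts in replicate 1 beside 138 of novel67_mature, whose seed is that of miR-17-5p and miR-106b. In replicates 2 and 3 it had none beside 757 and 1164, where a floor of 3 counts corresponds to 0.396% and 0.258% and the exact intervals reach 0.486% and 0.316%, against 56.6% (51.0 to 62.1) in replicate 1. novel26_star had 68 counts beside 3381 in replicate 3, and none beside 2413 and 3855 in replicates 1 and 2. Its share was 1.97% (1.53 to 2.49) in replicate 3, while the floor of 3 counts stood at 0.124% and 0.0778% in the others, with exact intervals reaching 0.153% and 0.0956%. Both rows were picked because their counts lay in 1 library. The distance between these limits and the share in that library partly follows from this choice and is described only.

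novel102_star had 129.7 CPM in replicate 1 and no counts in the others, beside 5, 1 and 2 counts of its partner. novel474_star had 0, 1 and 88 counts beside 0, 1 and 0. novel59_star had 224, 1 and 1 counts beside 5, 0 and 0. In these pairs both strands were too rare outside 1 library to compare shares. novel11_star had 425, 7 and 2 counts beside 4871, 1037 and 1318 of its partner, a share of 8.02% (7.31 to 8.79), 0.670% (0.270 to 1.38) and 0.152% (0.0184 to 0.546). Replicate 1 was thus high in both strands, and by more in the star strand. novel67_star, novel102_star, novel59_star and novel11_star were high in replicate 1, where miR-150 and miR-143 were also highest, and the part of these in their counts was not tested. Another 5 of the 16 rows lay in replicate 2 and 3 in replicate 3.

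Few star rows had a seed found among the 84 miRBase rows of the sheep table. Seeds of known miRNAs outside that table were not compared. The 63 rows had 61 distinct seeds, and 3 rows had the seed of a miRBase row: novel6_star that of the miR-30 family, novel497_star (17, 7 and 9 counts) that of miR-29a and miR-29b, and novel65_star (10, 3 and 11 counts) that of miR-181a. A mature partner with the seed of a miRBase row was more common, in 8 pairs. Besides those named, novel20_mature has the seed of miR-30a-5p, novel16_mature that of miR-125b, novel60_mature that of miR-16b, and the mature row of novel181, novel188 and novel189 that of miR-29a. In novel60 and in the row of novel181, novel188 and novel189, the star row held more summed counts than this partner (76 against 14, and 64 against 15). The latter star row had 0, 1 and 63 counts, nearly all in replicate 3.

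The seed was shared between star rows in the pair novel8 and novel10 and in the pair novel44 and novel45. novel44_star and novel45_star share 15 or more bases, and their reads may have been split by the counting. The sequence of novel44_mature is that of novel45_mature without its last base, so the mature reads may have been split as well. Where each star row stood against its own partner depends on that division. novel44_star had 29, 19 and 11 counts and was above its partner in each library (6, 12 and 1). novel45_star had 7, 5 and 4 counts and was far below its own (497, 350 and 310). In all, 10 star rows shared a stretch of 15 or more bases with another row on the same strand, so the division of reads among them is uncertain. This count covers star sequences only. Mature rows overlap too: novel59_mature lies whole within novel61_mature, and novel10_mature within novel8_mature. The star shares of such pairs carry the same uncertainty.

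On the opposite strand, 7 star rows held the reverse complement of 15 or more bases of another row. The clearest set is shown because its rows mirror each other.
novel8_star: gTGCCTACtgagctgaaac
novel239_star: cTGTGTTTcagctcagtaggcacg
novel10_star: gTGCCTACtgagctgatatca
novel269_star: cTGATATCagctcagtaggcacc
novel8_mature: tGGCTCAGttcagcaggaacagg
novel239_mature > novel269_mature: tTCCTGCTgaactgagccagtg

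All 19 bases of novel8_star stand in reverse complement in novel239_star, and all 21 bases of novel10_star in novel269_star. The mature rows of novel8 and novel10 likewise share 19 bases in reverse complement with the single mature row of novel239 and novel269. novel8_star had 14, 191 and 174 counts beside 3197, 5368 and 5820 of its partner, whereas novel239_star had 159, 670 and 1454 beside 10, 1 and 0. novel10_star had 12, 8 and 11 counts and novel269_star 8, 2 and 2. Of the mirrored pairs, novel239_star had the most star counts, and it shares its mature row with novel269_star. Adapter ligation to both RNA ends keeps the strand of a read, but whether the counting used it is not stated in the labels, and the source of these reads was not tested.

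The star row shared by novel14 and novel15 had 38, 0 and 0 counts beside 735, 759 and 904 of the mature row of both. It contains GTTCGA, a stretch typical of the T loop of transfer RNAs, searched as written on the deposited strand only. 3 of the 685 rows of the sheep table (0.438%) contain it and no other star row did. A match of these letters does not show where a read came from.
novel14_star > novel15_star: tGAGGCCCcgggttcgatccc

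Just inside the count minimum lay novel117_star and novel310_star with 10 counts and novel55_star, novel61_star and novel71_star with 11. Just outside lay novel33_star and novel283_star with 9, and novel118_star with 8, in a row that also bears the name novel102_mature.

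The range of star shares was set beside the miRBase rows of the same libraries. 10 named miRNAs had both arms in the sheep table, and in 6 of them the arm with fewer counts had 10 or more. There its share ran from 2.21% (miR-409-5p, with 33, 24 and 14 counts) to 48.1% (miR-411a-3p, with 81, 92 and 119 counts), with a median of 21.1%. miR-30a-3p had 2300, 3033 and 1456 counts, or 36.0% of its pair. The minor arm was defined here by its counts and so cannot exceed 50% of the summed counts, whereas a star row can. All 6 named duplexes had overhangs of 1 to 3 bases at both ends.

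The cow table holds 18 star rows among 779 rows, each with a mature partner, but 8 of them are at 0 in all libraries. 6 passed the same rule, with 34, 37 and 42 counts in all beside 171, 128 and 219 of their partners in cow replicates 1, 2 and 3. The star share of the summed pairs was 16.6% (exact interval 11.8 to 22.4), 22.4% (16.3 to 29.6) and 16.1% (11.9 to 21.1), a mean of 18.4% ± 3.52, against 13.6% ± 4.25 in sheep (SD, n = 3). The libraries of the species overlapped, and the means differed by -4.72 percentage points (sheep minus cow). The star counts chose the rows in each table, so no test is drawn on. The difference turned to 3.67 points without the sheep pair with most mature counts and to 5.79 points with the median over pairs, and was -69.7 without cow replicate 1, where only cow rows of high star share kept 10 counts.

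Star rows took 0.00928% ± 0.00229 of the cow counts against 1.18% ± 0.544 of the sheep counts. Both values are sums over rows chosen by these counts and are given without a test. The catalogues of named and predicted rows differ between the tables, and breed, species and study of origin cannot be told apart. All 6 cow star rows were uneven between libraries, for example novel290_star with 0, 36 and 0 counts. The numbers N of the tables are separate, so a cow row is not the counterpart of a sheep row of the same name.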

How the data were processed

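Small RNA libraries of milk EVs from 3 sheep and 3 cows were used, grouped by their titles. The deposited counts are whole reads per row, 1 table per species. The submitters' processing notes name the tools cutadapt 1.14 and Bowtie. Genome build, counting tool and the program behind the mature and star names: not given in the sources used here. Deposited TPM values gave the same shares as the counts. Row lengths are those the authors deposited and equal the number of letters in each sequence.

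CPM is a row's count divided by the library's total in the table, scaled to 1000000. Star shares carry exact Clopper-Pearson intervals (95%), and floors are 3 counts. Both describe counting error alone: PCR copies without molecular identifiers do not count molecules. A joined star row was set against the sum of its distinct mature rows. Duplexes were folded with ViennaRNA 2.7.2 (duplexfold, default energies). Intervals were computed with scipy 1.17.1. The permutation tests planned between sheep and cow are not drawn on, because the counts that chose the rows enter them. The scripts were tested on simulated pairs and duplexes. The members, lists and tests were chosen with earlier results of these data known.

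Rows were named by rule: the 12 with most counts, the 8 highest and 6 lowest star shares, up to 6 with 50 or more counts lying mostly in 1 library, lengths under 20 or over 24, shared seeds, and the 3 rows to either side of the minimum, with ties. Others named were chosen after their values were seen. Alternatives were the count minimum, joined names, denominators, weighting, pseudocounts, a replicate block, and leaving out single libraries. Matching to reference miRNAs, and the comparison of matched miRNAs between species, were not run because no reference miRNA sequences were used here. The values of 1 pair are not reported here singly; it stays in the counts over all rows.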

Additional observations from a re-analysis of the deposited data

How the results depend on the processing

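The count minimum set the median star share, since a higher minimum drops rows with few star counts by construction. The median of 19.6% became 11.1%, 33.9% and 56.4% with minima of 5, 20 and 50 counts, and 10.2% over pairs with 100 or more counts. With 1 sheep library left out and the rule applied to the other 2 it ran from 28.8% to 40.0%. The number of rows was 37 with a minimum of 50, and 46 to 57 with 1 library left out. The share of all counts (1.18%) became 3.02% of the unnamed rows' counts and 1.93% without the largest row. It was 0.745% without novel6_star, chosen after seeing the data, and 0.897% to 1.44% with 1 library left out. Weighting by counts moved the share of T to 45.5% and that of rows with 21 to 23 bases to 47.1%; without novel6_star they were 12.8% and 75.3%. Pearson's r with log2(CPM + 10) was 0.68, 0.63 and 0.85, and the correlation of ranks 0.32, 0.44 and 0.64, for replicates 1 and 2, 1 and 3, and 2 and 3.

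The difference between sheep and cow reversed to 5.79 points with the median over pairs and to 3.67 without the sheep pair with most mature counts, chosen after seeing the data. With 1 library left out it ran from -69.7 (without cow replicate 1, where cow rows of low share fell under the minimum) to -2.73 points (without sheep replicate 2). With a minimum of 20 it was -36.2, from 1 cow row, and with a minimum of 50 no cow row was left. The replicate block left the difference at -4.72; the numbers name animals of different species and do not pair them. The number of star rows above their partners stayed between 20 and 23 with 1 library left out. In 23 of the 63 rows, at least 1 library had fewer than 20 counts of star and mature together, which limits the star share there.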

Other observations

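The 48 star rows under the minimum held 131 counts in all, 22 of them a single count each. None exceeded its mature partner, and the median star share was 1.95%. The minimum itself favours star rows that are high against their partner, so these rows complete the range given for the 63. 1 of them, the joined row of novel118_star, is also the mature partner of novel102_star.

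Large mature rows stood in this set (chosen after their values were seen). novel9_star had 5, 0 and 0 counts beside 30732, 37182 and 34060 of novel9_mature, a share of 0.00490% (exact 95% interval 0.00159 to 0.0114). novel7_star had 1, 0 and 0 counts beside 77983, 3831 and 6125, or 0.00114%. novel3_star had 1, 1 and 0 counts beside 16647, 39563 and 8254, or 0.00310%. All 3 shares are low by construction, since star rows under the minimum stood beside mature rows of 64464 to 101974 counts.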
